A study of Mus musculus with 9 samples.

Results

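Trophoblast genes were followed through the open chromatin of mouse embryonic stem cells: Cdx2, Eomes, Elf5, Tfap2c, Tead4, Hand1, Ascl2, Krt8, Krt18 and Esx1. These 10 were named as a list of trophoblast genes and are 10 of 21887 protein-coding genes in RefSeq for GRCm38.p6, which has the same coordinates as mm10. Accessible DNA, where a transposase can cut, was mapped by ATAC-seq in 9 libraries of E14 cells of the TOT2N variant. Of the 3 lines, 1 carried a stably integrated TetR-MYBTA construct, 1 a stably integrated TetR construct, and 1 was wild type (WT), with 3 libraries each. All 3 lines share the TOT2N background. TetR is the bacterial tetracycline repressor, which binds tet operator DNA, and the labels spell out neither MYBTA nor TOT2N, nor the promoter of the constructs, nor whether a line is 1 clone. They also do not say whether libraries came from separate cultures, so p-values measure only the spread between these libraries, which may be technical.

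The trophoblast is the outer lineage of the early embryo and builds the fetal part of the placenta, whereas embryonic stem cells come from the inner cell mass and normally keep this programme silent. In the mouse, Tead4 acts with the co-activator Yap to switch on Cdx2, and Cdx2, Eomes, Elf5 and Tfap2c sustain trophoblast stem cells. Hand1, Ascl2 and Esx1 act later, in giant cells, the ectoplacental cone and the labyrinth, and Krt8 and Krt18 encode the paired keratins of simple epithelia, among them the trophectoderm. An open region near a gene does not show that the gene is expressed. In a bulk library, fewer cells with a region open and less opening per cell cannot be told apart.

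The promoters of 4 of these genes are shown because they differ in which libraries had a peak over them. They come from the RefSeq promoter table for GRCm38.p6, run 5′ to 3′ along the gene from 250 bases before to 50 bases after its start, and capitals mark every match to the MYB core AACNG on either strand. This motif was chosen because the name of the construct contains MYB. The window of Cdx2 lies at chr5:147307200-147307499 on the minus strand, that of Ascl2 at chr7:142969215-142969514 on the minus strand, that of Krt18 at chr15:102027966-102028265 on the plus strand and that of Eomes at chr9:118477939-118478238 on the plus strand.
Cdx2: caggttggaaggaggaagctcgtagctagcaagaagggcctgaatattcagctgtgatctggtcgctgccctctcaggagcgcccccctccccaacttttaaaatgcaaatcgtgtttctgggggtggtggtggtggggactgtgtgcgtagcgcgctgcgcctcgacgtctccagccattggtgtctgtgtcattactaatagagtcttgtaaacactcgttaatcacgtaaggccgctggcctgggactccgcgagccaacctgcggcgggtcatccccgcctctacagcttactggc
Ascl2: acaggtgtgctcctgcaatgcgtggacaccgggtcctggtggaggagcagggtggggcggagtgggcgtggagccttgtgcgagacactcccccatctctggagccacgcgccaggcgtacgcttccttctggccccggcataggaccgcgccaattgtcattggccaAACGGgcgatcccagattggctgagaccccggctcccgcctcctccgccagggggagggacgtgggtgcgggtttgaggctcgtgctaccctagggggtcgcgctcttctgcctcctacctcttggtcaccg
Krt18: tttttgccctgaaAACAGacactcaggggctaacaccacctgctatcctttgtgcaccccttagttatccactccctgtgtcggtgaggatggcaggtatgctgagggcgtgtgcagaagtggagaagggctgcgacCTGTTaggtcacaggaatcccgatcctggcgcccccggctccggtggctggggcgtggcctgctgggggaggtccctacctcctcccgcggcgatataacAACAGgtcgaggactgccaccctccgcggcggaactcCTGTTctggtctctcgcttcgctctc
Eomes: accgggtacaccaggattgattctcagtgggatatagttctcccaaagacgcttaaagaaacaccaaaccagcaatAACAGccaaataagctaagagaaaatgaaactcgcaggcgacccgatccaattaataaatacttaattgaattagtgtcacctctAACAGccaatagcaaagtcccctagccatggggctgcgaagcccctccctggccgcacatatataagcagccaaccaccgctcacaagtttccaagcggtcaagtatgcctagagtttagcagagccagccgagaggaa
A peak overlapped the Cdx2 window in 1 TetR-MYBTA library, in 3 TetR libraries and in 2 WT libraries. It overlapped the Ascl2 window in 3 TetR-MYBTA, 2 TetR and 3 WT libraries, and the Krt18 window in 0 TetR-MYBTA libraries, 1 TetR library and 3 WT libraries. No library had one over the Eomes window, whose nearest peaks began beyond the start of the gene. The Cdx2 window held 0 matches to the MYB core, the Ascl2 window 1, the Eomes window 2 and the Krt18 window 4. The core was present in 80.3% of 32851 promoters of the same length, with a median of 2 matches. The shares of promoters with the TEAD core GGAATG, the AP-2 core GCCNNNGGC and the E-box CANNTG were 14.7%, 16.6% and 72.3%, and an E-box read as CAACTG also contains the MYB core. Of these, the AP-2 core matched once each in the Cdx2 and Krt18 windows, and the TEAD core in none of the 4 windows.

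The libraries differed in length and in tags. TetR-MYBTA lists held 59675, 56917 and 45136 peaks, TetR lists 70230, 65957 and 58762, and WT lists 56612, 63098 and 59575. Total tags ranged from 18.2 to 19.8 M in TetR-MYBTA, from 16.4 to 20.1 M in TetR and from 18.5 to 23.0 M in WT. Tags in peaks made up 5.48 to 7.57%, 9.30 to 9.78% and 7.79 to 8.09% of them in TetR-MYBTA, TetR and WT, so each TetR-MYBTA library lay below every other library, and the part of this in the results was not tested. TetR-MYBTA 3 had both the shortest list and the lowest share of tags in peaks. Because lists differ in length, peaks near a gene are given as a share, in peaks per 10000 peaks of the same library. Of 10 genes of naive embryonic stem cells, 5 had a peak within 1 kb of an end in all 9 libraries. Esrrb and Zfp42 had none in any. Of the 10 trophoblast genes, 3 had one in all 9 libraries and Esx1 had none. Among 22 further trophoblast regulators, 14 had one in all 9, so peaks at gene ends cannot serve as a check of the cell type.

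Fewer of the peaks in TetR-MYBTA cells lay near the trophoblast genes. Counting each peak within 50 kb of any of the 10 genes once, the TetR-MYBTA libraries held 59, 45 and 31 such peaks, the TetR libraries 74, 69 and 59, and the WT libraries 63, 76 and 72. As shares these were 9.89, 7.91 and 6.87 per 10000 peaks in TetR-MYBTA, 10.5, 10.5 and 10.04 in TetR, and 11.1, 12.0 and 12.1 in WT. Each TetR-MYBTA library thus lay below each of the other 6, although TetR-MYBTA 1 was close to TetR 3. The mean share was 8.22 ± 1.53 in TetR-MYBTA, against 10.3 ± 0.267 for TetR and 11.8 ± 0.541 for WT (SD, n = 3 each). The ratio of TetR-MYBTA to the other 6 libraries together was 0.744, and to TetR alone 0.795. TetR itself stood at 0.880 of WT. The ratio to the other 6 was 0.805 without TetR-MYBTA 3, the shortest list, and 0.808 when each gene was set against the peaks of its own chromosome.

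Part of this was general. Windows of all protein-coding genes held 7731 ± 96.1 of every 10000 peaks in TetR-MYBTA and 8141 ± 46.2 in the other 6 libraries, a ratio of 0.950. The median ratio over the 17407 genes with a mean of at least 2 peaks was 0.942, against a median of 0.751 over the 10 trophoblast genes. The 10 genes of naive stem cells, with 12.6 ± 0.475 in TetR-MYBTA against 13.0 ± 0.694 in the other 6, stood at 0.970 in sum. Their median ratio was 0.934, near that of all genes. The mean share was lower in 8 of these 10 and higher in Tfcp2l1 and Zfp42, at ratios of 1.61 and 1.33.

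Tfap2c, Eomes and the keratin pair carried most of the lower share. Since Krt8 and Krt18 lie within 50 kb of each other on chromosome 15, they were counted as 1 locus, giving 9 loci, of which 8 had a lower mean share in TetR-MYBTA than in the other 6 libraries. Counted by gene this was 9 of 10. A lower mean share was common beyond these genes. The median ratio of 0.942 over the 17407 genes with a mean of at least 2 peaks puts most of them lower too. The exact share of all genes was not counted. In the other lists a lower mean share was seen in 8 of 10 naive stem cell genes, 16 of 22 further trophoblast regulators and 11 of 17 genes for placental products. Tfap2c accounted for 27.2% of the difference in the summed share, Eomes for 19.8% and the Krt8 and Krt18 locus for 14.9%, together 62.0%. Elf5 added 10.1%, Hand1 8.48%, Cdx2 8.30%, Tead4 7.80% and Ascl2 5.09%. Esx1 went the other way, at -1.74%. The lower share did not rest on 1 locus, since the ratio of the sum was 0.783 without Tfap2c and 0.767 without Eomes. Against TetR alone the order changed. Eomes then carried 28.9%, Tfap2c 20.6%, the keratin locus 18.7% and Cdx2 13.6%, while Elf5 at -1.35% and Ascl2 at -0.579% contributed nothing to a lower share.

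**Figure D1:**
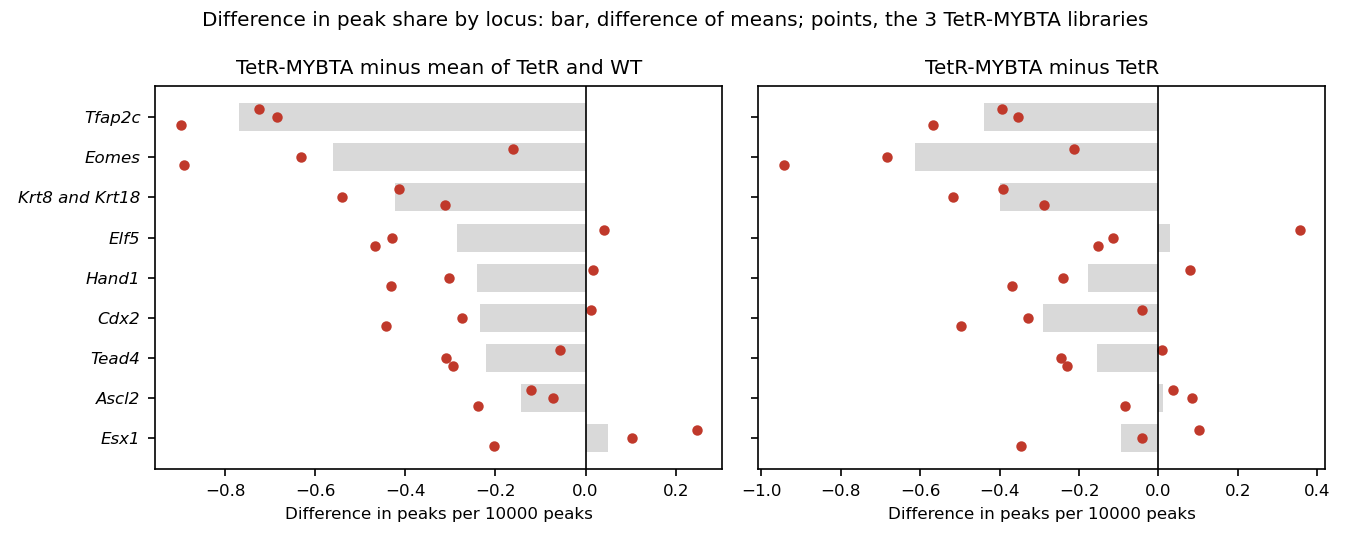
Difference in peak share for each of 9 loci, in peaks per 10000 peaks, as TetR-MYBTA minus the mean of the other 6 libraries (left) and minus the mean of TetR (right). Bars give the difference of means and points the 3 TetR-MYBTA libraries; all 3 points lie left of 0 for Tfap2c, Eomes and the keratin locus in both panels.

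Single genes were compared by a two-sided exact permutation test of the difference of mean shares over libraries, for each of the 20443 genes with a peak within 50 kb in any library. With 3 libraries against 6 the smallest p is 0.0119, and after Benjamini-Hochberg adjustment over these genes the lowest is 0.112, so 0 genes passed at 0.05. At an unadjusted p under 0.05, 3040 genes were lower and 1742 higher in TetR-MYBTA, which is 14.9% and 8.52% of them, and 3 of the 10 trophoblast genes were among the lower ones (Eomes, Tfap2c and Krt8). Genes were therefore read by whether all 3 TetR-MYBTA libraries lay beyond all other 6. Of the 10 trophoblast genes 2 lay below, Tfap2c and Krt8, and 0 above, where 10.2% of all genes lay below and 4.47% above. Against TetR alone, where 3 against 3 libraries cannot give a p under 0.1, 4 of 10 lay below (Cdx2, Eomes, Tfap2c and Krt8) and 0 above, beside 17.8% and 10.1% of all genes. Against WT alone 4 lay below (Elf5, Tfap2c, Ascl2 and Krt8) and 0 above, beside 20% and 7.83%. The comparisons share the TetR-MYBTA libraries and so are not independent of one another.

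**Figure D2:**
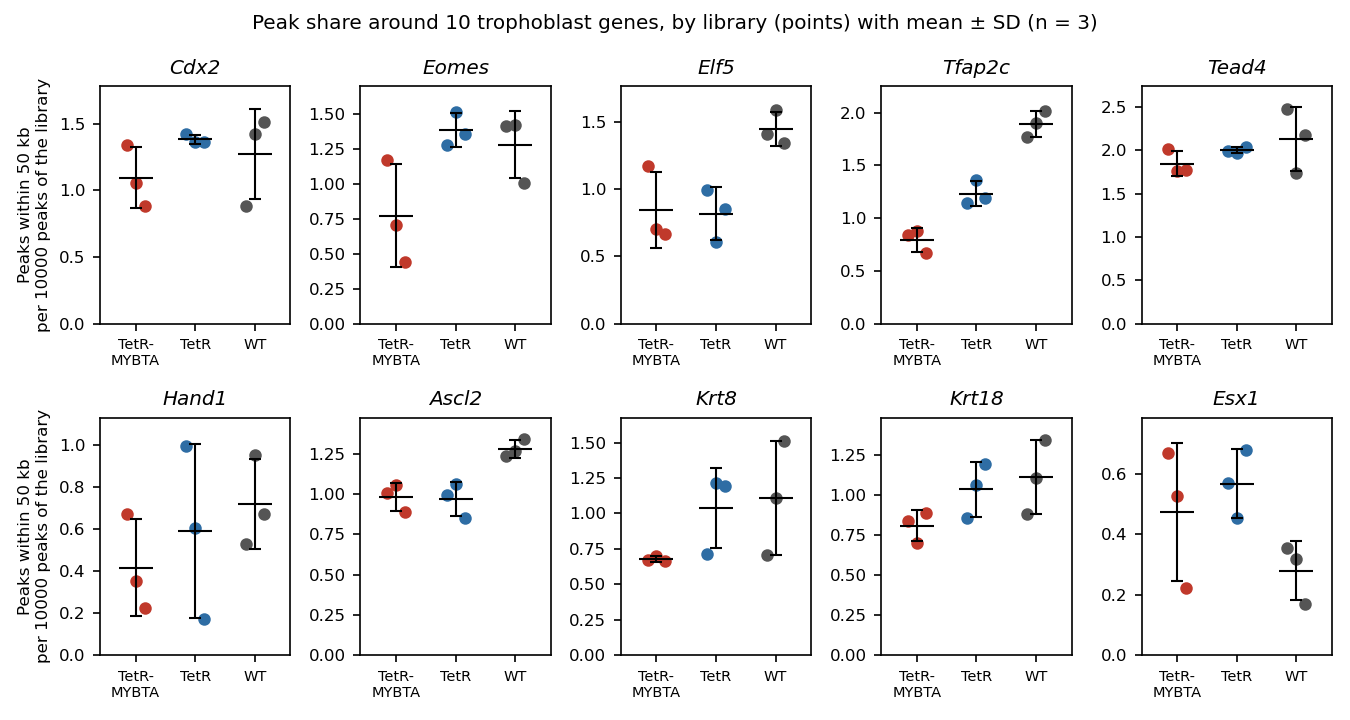
Peak share within 50 kb of each of the 10 trophoblast genes, in peaks per 10000 peaks, with 1 point per library and the mean ± SD of each line (n = 3). The lines do not overlap at Tfap2c, whose TetR-MYBTA libraries lie between 0.665 and 0.878, TetR between 1.14 and 1.36 and WT between 1.77 and 2.01.

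Tfap2c, on chromosome 2 (172545678 to 172558622), encodes transcription factor AP-2 gamma, which is also used by primordial germ cells. It had 5, 5 and 3 peaks within 50 kb in TetR-MYBTA, 8, 9 and 7 in TetR, and 10, 12 and 12 in WT. The 3 lines did not overlap, in number or in share. The mean share was 0.794 ± 0.114 for TetR-MYBTA, 1.23 ± 0.118 for TetR and 1.89 ± 0.124 for WT (SD, n = 3 per line), so TetR also lay below WT, where 11.4% of all genes did so. The ratio to the other 6 libraries was 0.508, with exact permutation p = 0.0238 and adjusted p = 0.150. Of its 13 regions, 5 had no TetR-MYBTA peak while all libraries of TetR or of WT had one, a pattern of 12 of the 122 regions around the 10 genes and of 6.07% of all regions. The regions at chr2:172549378-172549678, inside the gene, and chr2:172568575-172568841, 9.95 kb outside it, had peaks in all 3 TetR and 2 WT libraries, and 2 TetR-MYBTA libraries had another peak within 1 kb of the first. On the other side, chr2:172498874-172499101 and chr2:172510436-172510658 had peaks in all 3 WT libraries and 1 TetR library each. The fifth, at chr2:172529764-172530051, 15.6 kb outside the gene, was found in the 3 WT libraries and in no other.

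Eomes, on chromosome 9 (118478186 to 118486132), encodes the T-box factor eomesodermin, which also acts in mesendoderm. It had 7, 4 and 2 peaks in TetR-MYBTA, 9, 10 and 8 in TetR, and 8, 9 and 6 in WT. TetR-MYBTA 1 overlapped the WT libraries and TetR-MYBTA 3 was the lowest. The share was 0.773 ± 0.370 for TetR-MYBTA, 1.39 ± 0.119 for TetR and 1.28 ± 0.238 for WT (SD, n = 3 per line), a ratio to the other 6 of 0.579 (exact permutation p = 0.0238, adjusted p = 0.150). Without TetR-MYBTA 3 the exact permutation p was 0.0714, and without TetR-MYBTA 2 it was also 0.0714. Of the regions around Eomes, chr9:118432880-118433103 and chr9:118471352-118471618, 45.1 and 6.57 kb from its lower-coordinate end, had a peak in all 3 TetR libraries and in no TetR-MYBTA or WT library. A region 3.58 kb beyond the gene, chr9:118489716-118489949, had a peak in all other 6 libraries and in TetR-MYBTA 1 alone of its line. Of the 15 regions, TetR-MYBTA 3 had a peak in 2, at the start of the gene and at chr9:118506064-118506303.

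Cdx2, on chromosome 5 (147300900 to 147307249), encodes the homeobox factor that opposes Pou5f1 in the first lineage choice. It had 8, 6 and 4 peaks in TetR-MYBTA, 10, 9 and 8 in TetR, and 5, 9 and 9 in WT. TetR-MYBTA lay below TetR but overlapped WT, whose first library was about as low as TetR-MYBTA 3. The share was 1.09 ± 0.230 for TetR-MYBTA, 1.38 ± 0.0352 for TetR and 1.27 ± 0.341 for WT (SD, n = 3 per line), and its libraries overlapped the other 6 (exact permutation p = 0.202). Of its 14 regions 4 had a peak in all 9 libraries, all on the lower-coordinate side, from 1.42 to 30.6 kb beyond the gene. The region over its promoter, chr5:147307013-147307546, had a peak in TetR-MYBTA 1, in all TetR libraries and in WT 1 and 3. TetR-MYBTA 2 had instead a peak of its own 0.247 kb inside that end, and TetR-MYBTA 3 had none within 1 kb of either end.

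Elf5 (chromosome 2, 103412098 to 103450989) encodes an ETS factor whose promoter is methylated in embryonic stem cells. It had 7, 4 and 3 peaks in TetR-MYBTA, 7, 4 and 5 in TetR, and 8, 10 and 8 in WT. TetR-MYBTA and TetR overlapped and both lay below WT. Its share was 0.847 ± 0.283 in TetR-MYBTA and 0.818 ± 0.197 in TetR, against 1.45 ± 0.124 in WT (SD, n = 3 each). A region inside the gene, chr2:103436051-103436382, had a peak in TetR-MYBTA 1, in no TetR library and in all WT libraries.

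Tead4 (chromosome 6, 128227143 to 128300813), a TEAD-family factor, was the longest of the genes and had the most peaks, with 12, 10 and 8 in TetR-MYBTA, 14, 13 and 12 in TetR, and 14, 11 and 13 in WT. In share the lines overlapped, at 1.85 ± 0.142 for TetR-MYBTA, 2.00 ± 0.0364 for TetR and 2.13 ± 0.367 for WT (SD, n = 3 per line). Single regions did not. Inside the gene, chr6:128261542-128261846 had a peak in all other 6 libraries and in no TetR-MYBTA library, which also had no other peak within 1 kb. A neighbour at chr6:128255322-128255564 was likewise missing in TetR-MYBTA, but all 3 libraries had another peak within 1 kb of it. The reverse was also seen, as chr6:128296468-128296770, 4.04 kb inside the higher-coordinate end, had a peak in each TetR-MYBTA and WT library and in no TetR library. Beyond that end, chr6:128308419-128308637 had peaks in no TetR-MYBTA library, all 3 TetR libraries and 1 WT library.

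**Figure D3:**
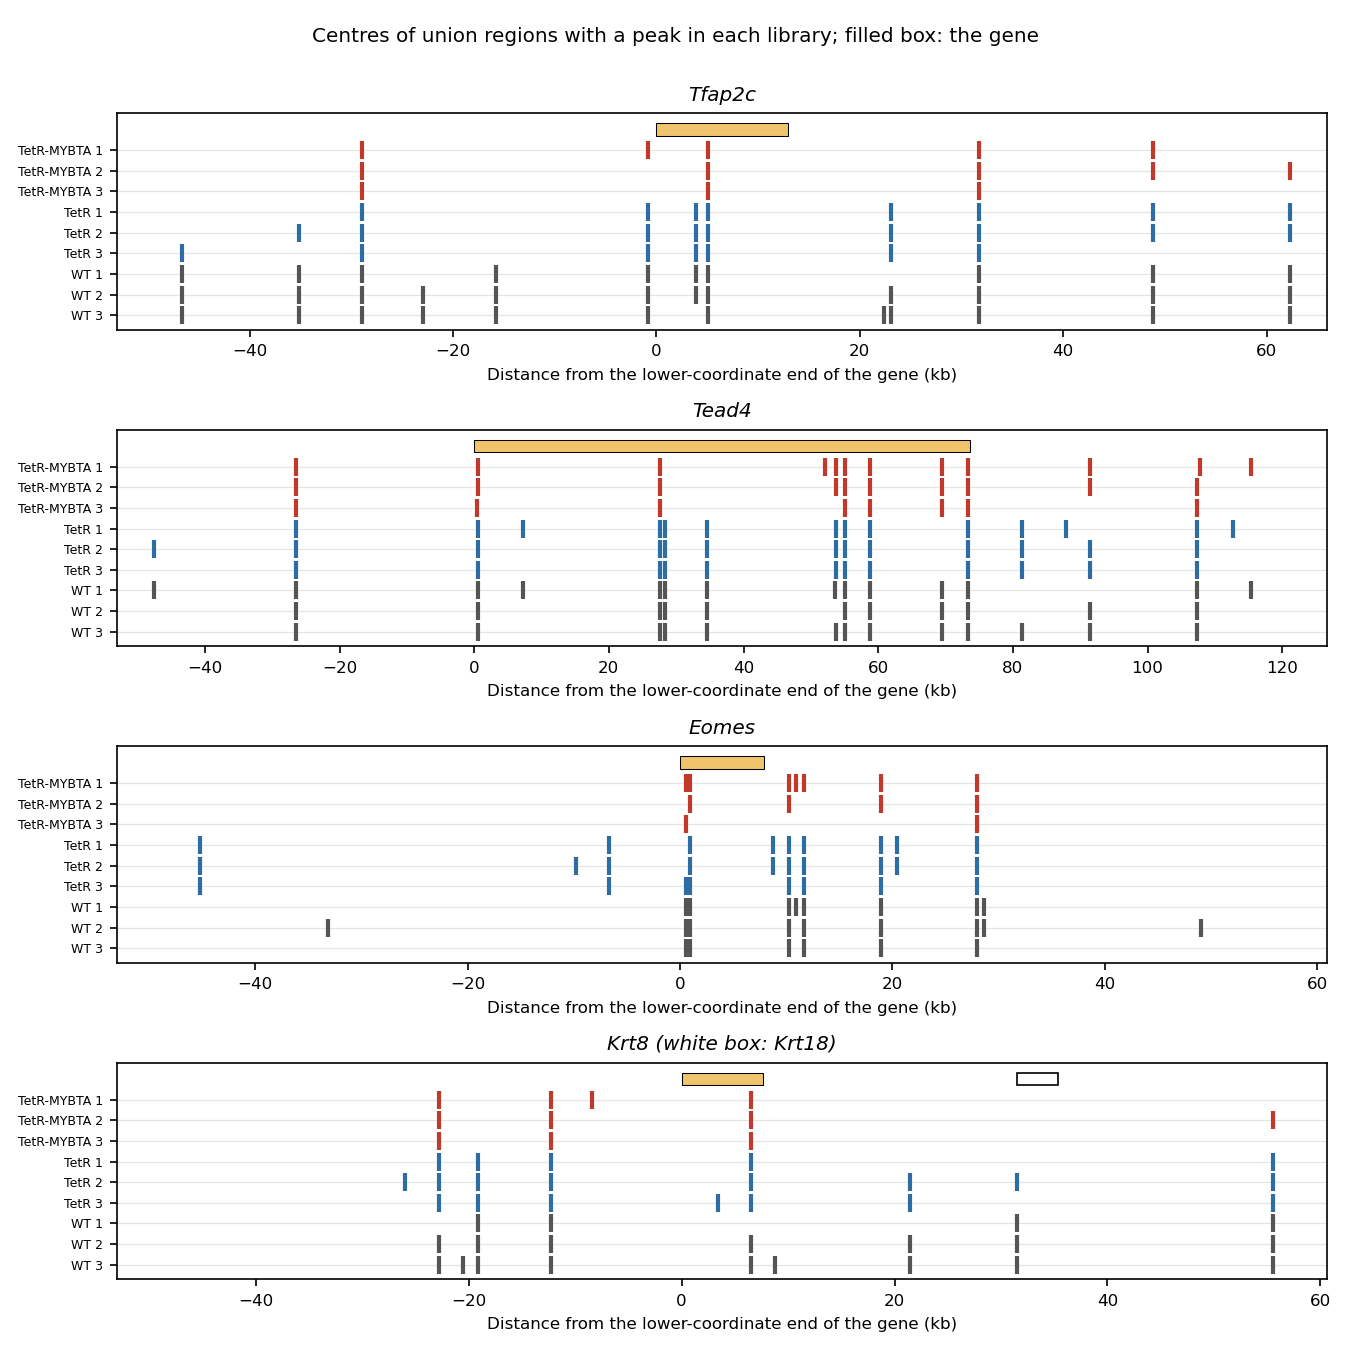
Centres of the regions with a peak in each library (ticks) around Tfap2c, Tead4, Eomes and Krt8, by distance in kb from the lower-coordinate end of the gene, with TetR-MYBTA, TetR and WT libraries in rows and the gene as a filled box. Rows of TetR-MYBTA carry the fewest ticks around Tfap2c, with 5, 5 and 3.

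Among the factors of later trophoblast types, none had TetR-MYBTA libraries apart from the other 6 within 50 kb. Hand1 (chromosome 11, 57828713 to 57832147), a basic helix-loop-helix factor of giant cells, had 4, 2 and 1 peaks in TetR-MYBTA, 7, 4 and 1 in TetR, and 3, 6 and 4 in WT. The difference of -0.240 per 10000 from the other 6 was smaller than their SD of 0.303 (exact permutation p = 0.274), and the direction turned with lists of equal length and within 100 kb. Ascl2 (chromosome 7, 142966822 to 142969264), an imprinted gene for a basic helix-loop-helix factor, had 6, 6 and 4 peaks in TetR-MYBTA, 7, 7 and 5 in TetR, and 7, 8 and 8 in WT. Its share in TetR-MYBTA, 0.982 ± 0.0864, was within the range of TetR, 0.970 ± 0.108, and both lay below WT, 1.28 ± 0.0546 (SD, n = 3 each). In the upper 50% of each list and within 100 kb it lay below all other 6, with differences of -0.833 and -0.353 per 10000 (exact permutation p = 0.0119 in both, adjusted p = 0.112 and 0.0811). Esx1 (X chromosome, 137115397 to 137122131), a homeobox gene of the labyrinth, had 4, 3 and 1 peaks in TetR-MYBTA, 4, 3 and 4 in TetR, and 2, 2 and 1 in WT. It was the gene among the 10 where TetR lay above WT without overlap, beside 8.57% of all genes. Inside Esx1, chrX:137120713-137120997 had a peak in TetR-MYBTA 1, in all TetR libraries and in no WT library.

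The keratin genes lie side by side on chromosome 15, Krt8 at 101996711 to 102004342 and Krt18 at 102028216 to 102032026, and share most of their windows. Krt8 had 4, 4 and 3 peaks in TetR-MYBTA, 5, 8 and 7 in TetR, and 4, 7 and 9 in WT. In share TetR-MYBTA lay at 0.670, 0.703 and 0.665, just under WT 1 at 0.707 and TetR 1 at 0.712, and in number it overlapped WT 1. The ratio to the other 6 was 0.633 (exact permutation p = 0.0476, adjusted p = 0.204), and within 10 kb the difference was 0.0560 peaks per 10000, in the other direction. Krt8 was not below all other 6 in the upper 50% of each list, with lists of equal length, within 10 or 100 kb, by number of peaks, or against the peaks of its own chromosome or near any gene. Krt18 had 5, 4 and 4 peaks in TetR-MYBTA, 6, 7 and 7 in TetR, and 5, 7 and 8 in WT, with shares that overlapped. A region 18.9 kb from Krt8, chr15:101977363-101977770, had a peak in all other 6 libraries and in no TetR-MYBTA library, with no other TetR-MYBTA peak within 1 kb. The region over the Krt18 promoter, chr15:102028029-102028319, had a peak in no TetR-MYBTA library, in TetR 2 and in all WT libraries.

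**Figure D4:**
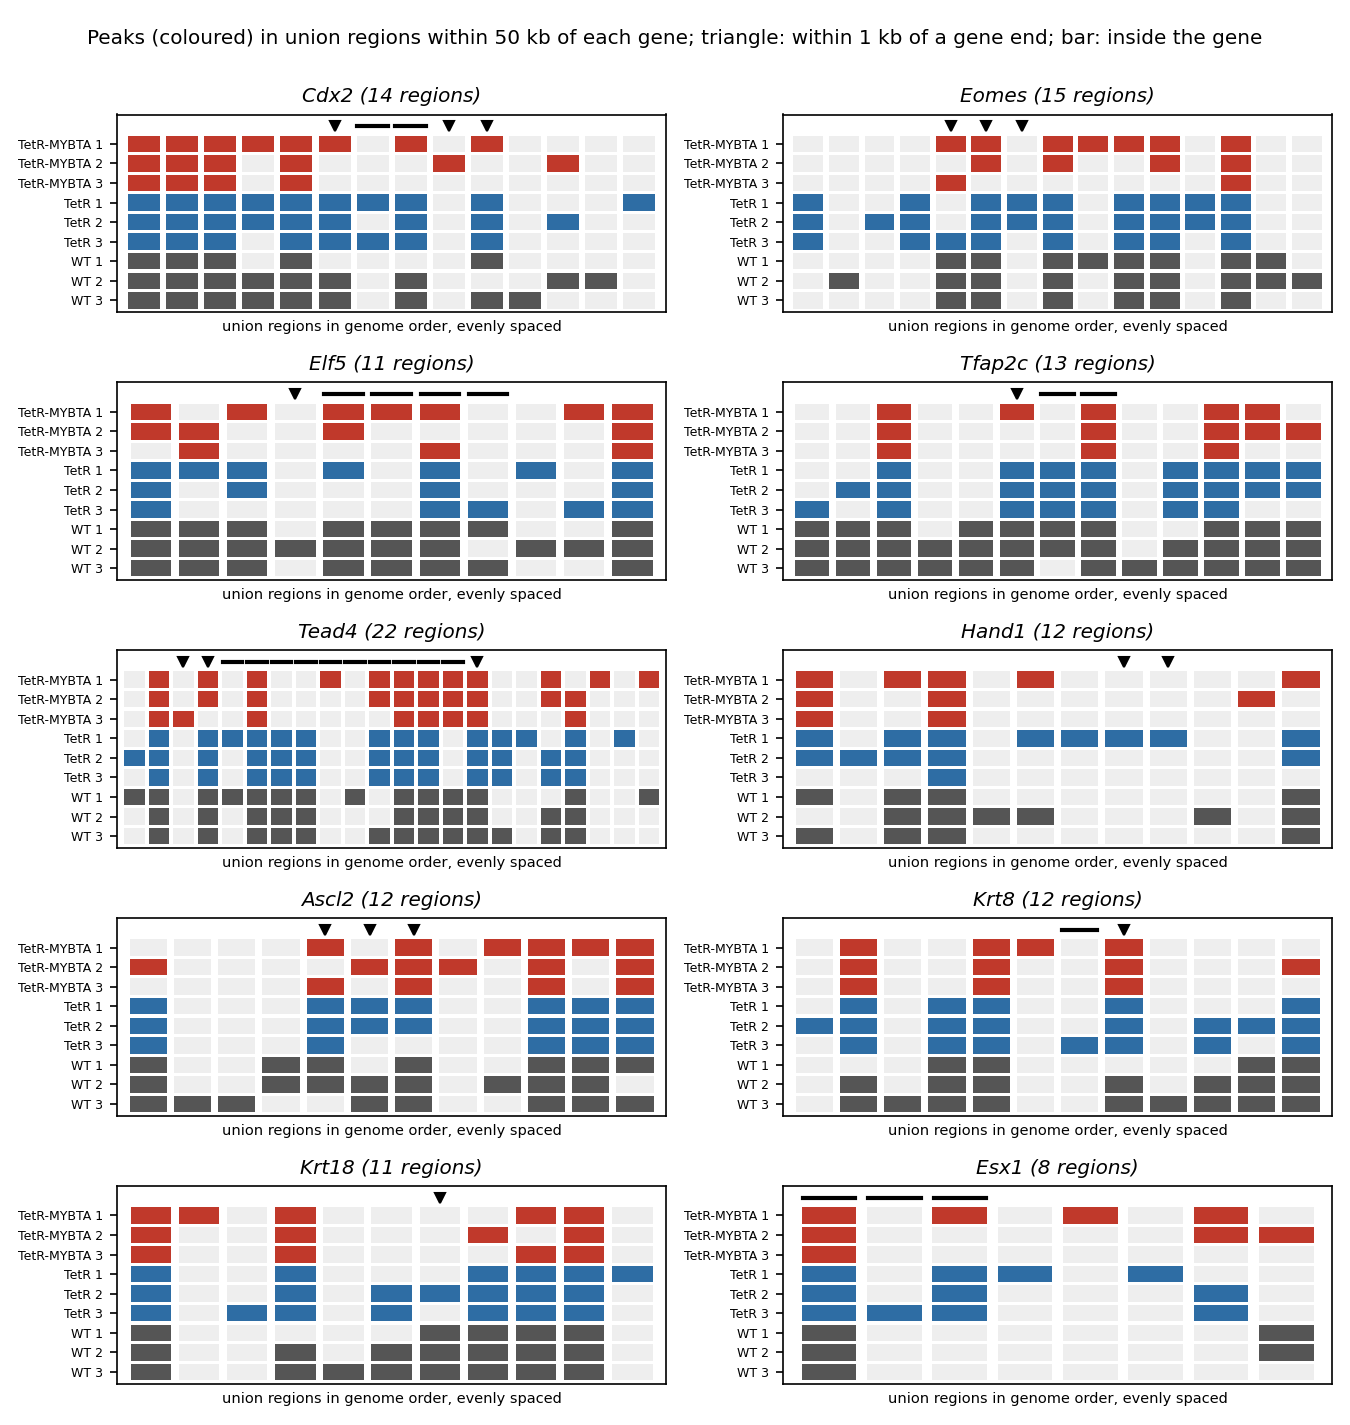
Presence (coloured) or absence (grey) of a peak in each region within 50 kb of each gene, with regions in genome order from left to right and libraries in rows, TetR-MYBTA above TetR above WT. Triangles mark regions within 1 kb of a gene end and bars regions inside the gene; no region is coloured in the TetR-MYBTA rows alone in all 3 of them.

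Over all 10 genes, the peaks fell into 122 distinct regions, a region being a set of peaks of any library that overlap by at least 1 bp. Of these, 50 (41.0%) had no peak in any TetR-MYBTA library, beside 34.6% of the regions of the whole series. Regions without a TetR peak numbered 31 (25.4%), beside 24.7%, and regions without a WT peak 29 (23.8%), beside 30.4%. Peaks of all 3 TetR-MYBTA libraries and of no other library formed 0 regions, beside 0.587% of the 116362 regions of the whole series. The reverse pattern held for 3 (2.46%), 2 in Tead4 and 1 near Krt8, beside 1.16%. Between TetR-MYBTA and TetR alone, 8 regions (6.56%) had a peak in all TetR and no TetR-MYBTA library, beside 4.43% of all regions, and 1 had the opposite pattern, beside 1.4%. Between TetR-MYBTA and WT, 7 regions (5.74%) had a peak in all WT and no TetR-MYBTA library, beside 2.79%, and 0 the opposite pattern, beside 1.23%. Between TetR and WT, 3 regions had a peak in all TetR and no WT library and 3 the reverse, beside 2.26% and 1.37%. Regions private to TetR numbered 2, both near Eomes (1.34% of all regions), and 1 was missing in TetR only, in Tead4 (0.255%). WT alone had 1 private region, near Tfap2c (0.571%). Without TetR-MYBTA 1 the 3 regions missing in TetR-MYBTA became 6, without TetR-MYBTA 2 they became 5, and the 8 became 15 without TetR-MYBTA 1. Fewer TetR-MYBTA libraries then had to lack a peak, a looser rule that more regions can meet, so these rises lend no support.

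Across the 3 TetR-MYBTA libraries, the number of shared regions held ran in the same order as the length of the list. Tags in peaks, at 7.57, 7.44 and 5.48%, ran in that order too, and the part of either was not tested. Of the 35 regions found in all other 6 libraries, TetR-MYBTA 1 held 29 (82.9%), TetR-MYBTA 2 held 27 (77.1%) and TetR-MYBTA 3 held 22 (62.9%). Over the 33750 such regions of the whole series the shares were 90.8%, 89.4% and 82.8%. Regions present in all 9 libraries were 19 of the 122 (15.6%), beside 22.4% of all regions, and 35 (28.7%) were found in 1 library, beside 26%.

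At the gene ends the same direction was seen in smaller numbers. Within 1 kb of either end of the 10 genes lay 9, 6 and 6 peaks in TetR-MYBTA, 11, 11 and 9 in TetR, and 9, 11 and 10 in WT. The mean was 7 ± 1.73 in TetR-MYBTA (SD, n = 3), with TetR at 10.3 ± 1.15 and WT at 10 ± 1 (SD, n = 3 each), and TetR-MYBTA 1 overlapped both other lines. In number the ratio of TetR-MYBTA to the other 6 was 0.689. As a share it was 0.796, with 1.30 ± 0.229 per 10000 peaks in TetR-MYBTA (SD, n = 3) against 1.63 ± 0.0800 in the other 6 (SD, n = 6), and each TetR-MYBTA library was lower than each of the others. The ratio of end shares was 0.999 for the 22 further trophoblast regulators and 1.01 for the naive stem cell genes. For the 17 genes of placental products it was lower, at 0.557, from a mean of 2 peaks against 4. It was not computed over all genes. Eomes, Tead4 and Ascl2 had an end peak in all 9 libraries. The end region of Tfap2c, chr2:172544682-172545058, had a peak in TetR-MYBTA 1 alone of its line and in all other 6 libraries, while at Krt8 the region chr15:102003097-102003440 held a peak in all libraries but WT 1, and that peak came within 1 kb of the end in TetR-MYBTA 3, TetR 2 and 3, and WT 2 and 3. Elf5 had an end peak in WT 2 only, and Hand1 one at each end in TetR 1 only. At Eomes, chr9:118478959-118479360 had a peak in TetR-MYBTA 1 and 2 and in the other 6, chr9:118478519-118478911 in TetR-MYBTA 1 and 3, TetR 3 and all WT libraries, and chr9:118486843-118487088 in TetR 1 and 2. Tead4 had a peak at chr6:128300388-128300627 in all 9 libraries and at chr6:128227638-128227920 in all but TetR-MYBTA 3, which had its own at chr6:128227428-128227626. At Ascl2, chr7:142969176-142969510 had a peak in all but TetR 3, chr7:142967423-142967694 in all but TetR-MYBTA 2 and WT 3, and chr7:142967914-142968360 in TetR-MYBTA 2, TetR 1 and 2, and WT 2 and 3, of which the peak of TetR-MYBTA 2 alone came within 1 kb of an end. At Cdx2, the other end region, chr5:147299717-147299937, had a peak in TetR-MYBTA 1, all TetR libraries and WT 2 and 3. Just inside and just outside the 1-kb limit lay that region, at 0.963 kb, and a region near Krt8 at 1.07 kb, found in WT 3 only.

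Where a region was open in every library, its place in the peak list could still be compared. The lists carry no height, but their rows follow the peak numbers that HOMER gives in order within each chromosome. Reading the row as strength, and across chromosomes, is an assumption that the lists do not allow to be tested. On it, the 26020 regions that every library shared were ranked by row order within each list, with 100 for the first. Among the 19 near the trophoblast genes, the mean place was lower in TetR-MYBTA in 16, and the median difference was -10.7, against -0.728 over all such regions. With that median below 0, a lower mean place was the more common case among all such regions too. Their exact share was not counted. In 4 of the 19 the TetR-MYBTA libraries were all lower than the other 6, where 8.92% of all such regions did so, and above them in 0, where 11.7% did. Against TetR alone the same 4 were lower, near the 19.5% of all such regions, and 0 were above, beside 19.7%. No region of the 26020 passed the exact permutation test after adjustment. The 4 were a pair at Tfap2c and a pair at Tead4. At chr2:172577234-172577574, 18.6 kb beyond Tfap2c, TetR-MYBTA libraries stood at 51.1, 46.7 and 37.4, TetR libraries at 76.4, 70.8 and 78.4, and WT libraries at 88.5, 88.2 and 86.9. The lines were apart from one another there, with a gap between TetR-MYBTA and TetR larger than the spread of either (exact permutation p = 0.0119 against the other 6, adjusted p = 0.0828). At chr2:172550510-172550999, inside Tfap2c, the mean place was 21.3 ± 6.13 in TetR-MYBTA (SD, n = 3) and 44.4 ± 12.4 in the other 6 (SD, n = 6). Inside Tead4, chr6:128254599-128254923 stood at 13.5 ± 5.19 in TetR-MYBTA against 44.9 ± 11.0, and chr6:128282135-128282414 at 34.5 ± 10.4 against 65.4 ± 10.02 (SD, n = 3 and n = 6). The first of these is the neighbour of the missing region at chr6:128255322-128255564.

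**Figure D5:**
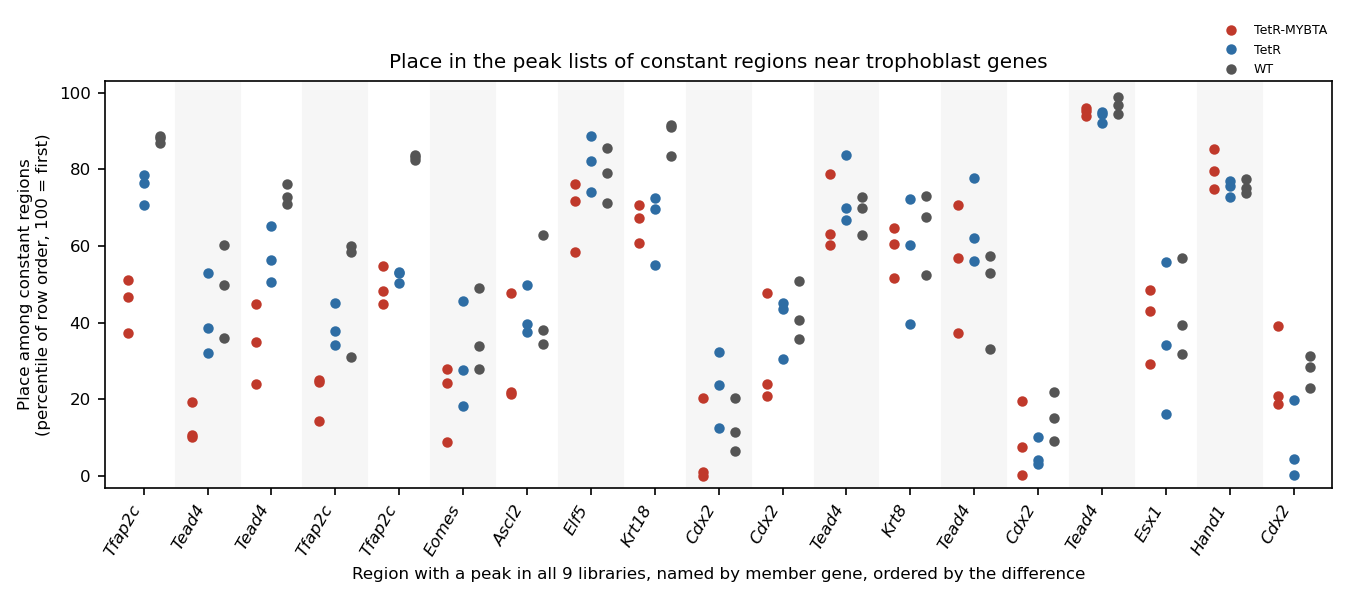
Place by row order, from 0 to 100 for the first row, of each of the 19 regions with a peak in all 9 libraries near a trophoblast gene, with 1 point per library and regions ordered by TetR-MYBTA minus the other 6. In the 4 regions at the left, at Tfap2c and Tead4, all TetR-MYBTA points lie below the TetR and WT points.

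Further trophoblast regulators stood nearer to genes at large than the 10 trophoblast genes did. For genes of placental products the summed ratio, 0.841, lay between 0.744 for the 10 genes and 0.950 for all genes. Their median ratio, 0.730, lay below the 0.751 of the 10 genes. Windows of 22 further trophoblast regulators held 23.6 ± 0.300 per 10000 peaks in TetR-MYBTA and 25.5 ± 0.616 in the other 6 libraries, a ratio of 0.924 with a median of 0.912 over the genes, beside 0.950 and 0.942 for all genes. Of the 22, 2 lay below the other 6 without overlap, Msx2, a homeobox gene, and Fgfr2, the receptor through which FGF4 sustains trophoblast stem cells, and 0 lay above, beside 10.2% and 4.47% of all genes. Fgfr2 had 2, 2 and 1 peaks in TetR-MYBTA, 5, 4 and 4 in TetR, and 5, 5 and 6 in WT. Msx2 had 3, 2 and 2 peaks in TetR-MYBTA, 5, 4 and 3 in TetR, and 4, 5 and 6 in WT, and was the 1 gene of these lists with an end peak in all other 6 libraries and in no TetR-MYBTA library. Of 17 genes for placental products, with a summed ratio of 0.841 and a median of 0.730 over the 16 genes with peaks, 2 lay below, the growth factor gene Igf2 and the gelatinase gene Mmp9, beside the same 10.2%. In this list 1 lay above, beside 4.47%, the placental lactogen gene Prl3d1, with 2, 2 and 2 peaks in TetR-MYBTA, 0, 1 and 1 in TetR, and 1, 1 and 1 in WT, and Prl3b1 had no peak in any library. Of the 10 naive stem cell genes, 1 lay above, Tfcp2l1, with 12, 11 and 9 peaks in TetR-MYBTA, 9, 8 and 8 in TetR, and 7, 7 and 7 in WT.

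The 5 genes whose share most resembled that of the trophoblast genes across the 9 libraries were Acot7, Dock1, Snx24, Tiam2 and Auts2. Likeness was the mean absolute difference between the 2 profiles, each divided by its own mean, and ranged from 5.27% for Acot7 to 6.30% for Auts2 among 2028 genes with a mean of at least 10 peaks.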

How the data were processed

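Per the file headers, HOMER called peaks on 1 library at a time, without pooling or a control. The headers state thresholds of 0.001 for the false discovery rate, 4-fold over 10 kb around a peak, 0.0001 for the Poisson p-value there, 1 tag at most per position, and 11 or 12 tags per peak. FastQC, Bowtie2 and Picard, Trim Galore 0.6.10, HOMER 4.11, deepTools 3.5.5 and mm10 are named in the submitters' processing notes. Any shift for the Tn5 offset and removal of blacklisted regions were not given in the sources used here. In the deposited lists, starts and ends are in base pairs and the score is 1 in every row, so peaks were used as present or absent, and with the depth of single peaks unknown they have no interval. Row order followed HOMER's peak numbers within chromosomes (lowest rank correlation 0.990). A shorter list reaches less far down, which can remove weak regions.

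Positions were counted from 1. Gene ends are ends of the RefSeq gene, and strand was known only from the promoter table, which held 7 of the 10 genes (not Tfap2c, Tead4 or Hand1). Libraries were grouped by title. Calculations used Python 3.11.15, numpy 2.4.6, pandas 2.3.3 and scipy 1.17.1, and figures matplotlib 3.10.9. The two-sided exact permutation test used the absolute difference of means over all 84 assignments of 3 libraries, and was tested on simulated data. The members and lists were chosen with earlier results of these data known, so no p is given for sums over them. Named in the text were the 10 genes, regions within 1 kb of their ends, regions that all TetR-MYBTA libraries and no other, or no TetR, library held or the reverse, genes of the other lists whose libraries did not overlap or whose end peaks split the lines, and the 5 most alike genes. The regions of Eomes 3.58 and 19.9 kb from the gene, the constant regions of Cdx2, regions that split WT from TetR-MYBTA or TetR, and Esrrb and Zfp42 were named after their values were seen, and the ranking of constant regions was added after seeing the data. Other settings were equal list lengths, the upper 50% of each list, windows of 10 and 100 kb, gene ends of 2.5 kb, other denominators, merging of peaks up to 200 bp apart, each library or gene left out, and the replicate number as a block.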

Additional observations from a re-analysis of the deposited data

How the results depend on the processing

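The ratio of the summed share kept its direction under every setting run. It was 0.572 (0.621 against TetR) in the upper 50% of each list, where the number of gene-end peaks gave 0.279. Leaving out 1 library gave 0.669 to 0.805, 0.714 to 0.860 against TetR and 0.590 to 0.738 for the number of gene-end peaks. Percentages in brackets give the share of all genes with the same call under the same setting. The 2 genes below the other 6 libraries (10.2%) became 4 in the upper 50%, Eomes, Tfap2c, Tead4 and Ascl2 (8.78%). At equal length Eomes and Tfap2c lay below (5.98%), and within 100 kb Tfap2c, Ascl2 and Krt18 (13.8%). Only Tfap2c did so within 10 kb (5.76%) or by number of peaks (11.7%). The same held against the peaks of the own chromosome (9.21%) or near any gene (7.05%). Without 1 library 2 to 3 genes lay below. The 3 genes at an unadjusted p under 0.05 (23.4%, both directions together) became 1 within 10 kb (15.8%) and 5 within 100 kb (29.7%). They became 0 to 3 without 1 library, with 1 without TetR-MYBTA 2 and 0 without TetR-MYBTA 3. The 4 below TetR (17.8%) became 2 with lists of equal length (12.8%), within 10 kb (13.1%) or against peaks near any gene (13.7%). They became 1 against the own chromosome (17.4%), and 4 to 5 without 1 library. Of the 39 further genes, the 4 lower (10.2% of all genes) became 0 at equal length (5.98%), 2 within 10 kb (5.76%), 7 within 100 kb (13.8%) and 4 to 7 without 1 library (7 without TetR-MYBTA 2). The 1 higher (4.47%) became 0 at equal length (3.18%) or within 10 kb (2.62%). It became 2 within 100 kb (6.11%) and against the peaks of the own chromosome (6.56%) or near any gene (10.6%), and 1 to 3 without 1 library. The 3 missing regions (1.16% of all regions) stayed at 3 at equal length (0.821%). They became 6 when 2 of 3 libraries sufficed, and 3 to 6 without 1 library, both looser rules that more regions can meet. Under the stricter rule of no peak within 1 kb, chr6:128255322-128255564 no longer counted, as all 3 TetR-MYBTA libraries had a peak that near. The 8 regions in all TetR and no TetR-MYBTA library (4.43% of all regions) became 7 at equal length (3.39%) or with 50% cover. They became 8 to 15 without 1 library, 6 with no peak within 1 kb and 12 when 2 of 3 libraries sufficed. The 0 private ones (0.587%) stayed at 0, also at equal length (1.55%). The 4 lower places (8.92% of constant regions) became 4 to 6 without 1 library. For the other settings of these region counts the share of all regions is not given. No gene passed adjustment in any setting. Signs turned for Hand1 (0.0369 at equal length, 0.269 within 100 kb), Ascl2 and Krt8 (0.00711 and 0.0560 within 10 kb) and Esx1 (-0.0739 at equal length, -0.0368 in the upper 50%, -0.0465 within 10 kb, -0.0496 without TetR-MYBTA 1, -0.00209 without WT 3, with a range from -0.0496 to 0.175 without 1 library). The cause was not tested. Tfap2c lay below the other 6 libraries in every setting that compared the libraries' ranges.

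With the replicate number as a block the ratio was 0.745 (0.793 against TetR). The 3 genes at an unadjusted p under 0.05 were Eomes, Krt8 and Krt18, beside 17.4% of all genes. Correlations of deviations ran from -0.0553 to 0.0942 for the same number and from -0.0931 to 0.0733 for different numbers, so the numbers were not taken to pair libraries. Present or absent peaks near the threshold limit what can be compared.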
